A study of Mus musculus with 13 samples.

Results

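The proteasome is the protease that destroys ubiquitin-tagged proteins, and its constitutive subunits were followed here at the mRNA level in cultured mouse mammary organoids. Members were the non-control array probes whose deposited gene name was a Psma, Psmb, Psmc or Psmd symbol with a number, without Psmb8, Psmb9 and Psmb10, the inducible catalytic subunits of the immunoproteasome. The rule gave 50 probes for 35 genes, of 41174 probes for 28786 genes on the array, and it used no measured value. Organoids are many-celled epithelial fragments freed from the gland by enzyme digestion, and each RNA sample was a bulk extract of such fragments. RNA was hybridised to 1-colour Agilent arrays after 4 days in gel, and all cultures, those of normal tissue included, carried 2.5 nM FGF2, a fibroblast growth factor. The 4 groups were tumor organoids in collagen I and tumor organoids in Matrigel (the same mice A, B and C in both), normal organoids in collagen I (again mice lettered A to C) and normal organoids in Matrigel (A, B and D), with 3 arrays each. Tumor organoids came from the largest tumor of each MMTV-PyMT mouse, taken at 12 to 16 weeks of age. In that model the MMTV promoter drives the polyomavirus middle T oncogene in mammary epithelium. Normal organoids came from wild-type FVB mice, whose age the labels used here did not give. Matrigel is a basement membrane extract rich in laminin, and collagen I was used as a rat tail gel of 3 mg/ml. In bulk samples of this kind, fewer cells of a type and less RNA per cell cannot be told apart.

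As background, the proteasome has a barrel-shaped core particle, 20S, capped by regulatory particles, 19S. The outer rings of the barrel are built of alpha subunits (Psma genes), which gate the pore, and the inner rings of beta subunits (Psmb genes), of which Psmb5, Psmb6 and Psmb7 cleave peptide bonds. In the cap, the Psmc ATPases unfold substrates and the Psmd subunits include the scaffold, ubiquitin receptors and a deubiquitinase. The transcription factor Nrf1 (Nfe2l1) is known to raise subunit genes together when proteasome activity falls, through antioxidant response elements bound with small Maf partners.

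Promoter sequence is printed for the 5 genes whose Matrigel difference between tumor and normal organoids passed the test under each of 5 ways of scaling the arrays, and for Psmb5, the chymotrypsin-like catalytic subunit. Each run is the 250 bases before the RefSeq start site in GRCm38.p6, written on the gene's strand. Capitals mark the core of the antioxidant response element (TGACNNNGC) or CCAAT, on either strand.
Psmb3: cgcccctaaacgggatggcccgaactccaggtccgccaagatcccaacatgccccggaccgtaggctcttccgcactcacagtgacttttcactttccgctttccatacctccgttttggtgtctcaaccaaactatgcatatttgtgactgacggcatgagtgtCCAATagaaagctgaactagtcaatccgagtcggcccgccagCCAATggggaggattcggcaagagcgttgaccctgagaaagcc
Psmb6: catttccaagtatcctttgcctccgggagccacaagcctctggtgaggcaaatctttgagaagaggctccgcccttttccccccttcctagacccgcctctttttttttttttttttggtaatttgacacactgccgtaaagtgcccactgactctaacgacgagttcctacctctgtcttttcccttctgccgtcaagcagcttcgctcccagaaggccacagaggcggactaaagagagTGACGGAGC
Psmb5: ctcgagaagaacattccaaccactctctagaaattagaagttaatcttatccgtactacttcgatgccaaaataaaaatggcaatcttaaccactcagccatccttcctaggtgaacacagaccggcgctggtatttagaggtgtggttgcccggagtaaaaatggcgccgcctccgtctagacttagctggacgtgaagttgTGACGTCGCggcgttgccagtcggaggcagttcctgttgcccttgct
Psmd4: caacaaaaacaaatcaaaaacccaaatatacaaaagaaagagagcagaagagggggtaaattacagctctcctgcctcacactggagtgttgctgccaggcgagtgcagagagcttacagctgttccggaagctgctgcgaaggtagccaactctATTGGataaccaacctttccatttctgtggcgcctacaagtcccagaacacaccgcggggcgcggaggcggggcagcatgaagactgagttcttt
Psmd8: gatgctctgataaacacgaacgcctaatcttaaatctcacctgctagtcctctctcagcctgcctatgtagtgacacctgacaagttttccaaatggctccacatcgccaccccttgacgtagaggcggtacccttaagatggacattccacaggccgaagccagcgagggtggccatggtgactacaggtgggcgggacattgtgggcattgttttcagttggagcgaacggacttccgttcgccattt
Psmd6: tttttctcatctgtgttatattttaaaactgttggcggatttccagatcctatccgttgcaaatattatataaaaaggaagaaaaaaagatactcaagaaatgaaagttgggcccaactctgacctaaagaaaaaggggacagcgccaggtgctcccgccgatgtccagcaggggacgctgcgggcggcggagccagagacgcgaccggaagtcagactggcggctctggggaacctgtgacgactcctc

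These runs lie at chr11:97703184-97703433 (plus strand) for Psmb3, chr11:70525107-70525356 (plus) for Psmb6 and chr14:54617996-54618245 (minus) for Psmb5. Those of Psmd4, Psmd8 and Psmd6 lie at chr3:95042615-95042864, chr7:29180674-29180923 and chr14:14120946-14121195, all on the minus strand. RefSeq windows were at hand for 28 of the 35 genes. The core TGACNNNGC stood in 5 of these 28 (17.9%), beside 11.5% of all 27025 genes with a window. It lay 9 bases before the start in Psmb6, 47 in Psmb5 and 31 in Psmd9, and on the minus strand 227 bases before it in Psmc6 and 247 in Psmd12. CCAAT stood in 11 of the 28 (39.3%), beside 37.5% of all genes, with 2 copies in Psmb3 and 1 in Psmd4. Neither motif was found in the printed windows of Psmd8 and Psmd6. No printed window holds both motifs, although the searches allowed matches to overlap, and a match is a run of letters, not a measured binding site.

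Of the 35 genes, 34 were tested. The single probe of Psma8, an alpha subunit of the testis, was well above background on 0 of the 12 arrays and is not considered further, and 1 of the 2 Psmd11 probes was likewise at background on all 12. The probes that stand for the other 34 genes were well above background on 12 of 12 arrays, with 0 saturated spots. Levels are log2 of the processed signal over the 75th percentile of its array, so that a level belongs to its probe and is read only between arrays. The 75th percentile itself was 690.7 to 812.2 intensity units in tumor organoids in collagen I, 383.2 to 569.8 in tumor organoids in Matrigel, 971.2 to 1216.3 in normal organoids in collagen I and 670.9 to 1098 in normal organoids in Matrigel. The spike-in control probes, as log2 over the 75th percentile, had medians of -0.32 to 0.36 in tumor Matrigel arrays. They had -1.94 to -1.47 in tumor collagen I, -2.28 to -2.01 in normal collagen I and -2.15 to -1.52 in normal Matrigel. Probes well above background were 56.61 to 58.63% on tumor Matrigel arrays and 62.1 to 71.4% on the others of the 12. Tumor Matrigel arrays also had the widest spread of signal. The 95th percentile of probes kept lay 4.45 to 4.72 above the 75th in that group, against 4.16 to 4.30 in tumor collagen I, 3.93 to 4.13 in normal collagen I and 3.93 to 4.16 in normal Matrigel. Quantile normalization, which gives all arrays the same spread, was set beside the 75th percentile throughout. The part of this spread, and of the spike-in and detection differences, in the results was not tested. The 5 luminal and 5 basal epithelial markers were well above background in all 4 groups. Of 5 leukocyte markers, 3 (Cd68, Lyz2 and Cd52) were well above background on all tumor arrays, Laptm5 on 1 of them and Ptprc on 0. Cd68 averaged 1.61 in tumor and -2.55 in normal organoids in Matrigel, and Lyz2 0.83 and 3.21. The part of these cells in the results was not tested.

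In Matrigel, tumor organoids had more mRNA than normal organoids of 4 subunits under all 5 scalings: Psmb3 and Psmb6 of the core, and Psmd8 and Psmd4 of the cap. Psmd6, a subunit of the cap's lid, was lower in tumor organoids under all 5. The share of all genes that passed under all 5 is not given here, nor for later counts of this kind. These counts are thus not read as a trait of the family. The family as a whole had no fixed direction. With the 75th percentile scaling, 14 of 34 genes rose and 1 fell, beside 25.7% and 25.9% of all 18274 genes tested, whereas quantile normalization called 4 higher and 11 lower, beside 23.2% and 25.4%. The 5 scalings were the 75th percentile, median centring, quantile normalization, a normexp background correction, and the authors' own deposited log2 values.

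Psmb3, a beta subunit with no catalytic site, read 6.11, 6.77 and 6.37 in tumor organoids in Matrigel (mice A, B and C), against 5.51, 4.92 and 4.78 in the normal organoids of mice A, B and D in Matrigel. The groups do not overlap, and normal mouse A was nearest to the tumors. The difference was 1.34 ± 0.25 (log2, SE), a 2.54-fold higher level, with limma's adjusted p of 0.00149. Over the 5 scalings it ran between 0.54 and 1.39, with adjusted p up to 0.0249. A separate, dimmer Psmb3 probe gave 1.103, with an adjusted p of 0.0029 in limma's fit over probes.

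Psmb6, the caspase-like catalytic subunit, read 6.21, 6.60 and 6.33 in the tumor Matrigel arrays, against 5.55, 5.06 and 4.89 in the normal Matrigel arrays. Again all tumor values lay above all normal values. The rise was 1.21 ± 0.21 (2.32-fold, limma's adjusted p = 0.00106), and 0.44 to 1.26 over the scalings. The other catalytic subunits, Psmb5 and Psmb7, rose by 0.86 ± 0.20 (adjusted p = 0.00472) and 0.68 ± 0.16 (adjusted p = 0.00484) with limma on the 75th percentile scale, but gave 0.34 (adjusted p = 0.078) and 0.26 (adjusted p = 0.101) after quantile normalization, neither of which passed the test. Psmb1 and Psmb4, which have no catalytic site, passed on the 75th percentile scale at 0.72 ± 0.19 and 0.69 ± 0.21 (limma's adjusted p = 0.00941 and 0.0166), while quantile normalization gave 0.16 and -0.01. Psmb2 stood at -0.01.

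**Figure D1:**
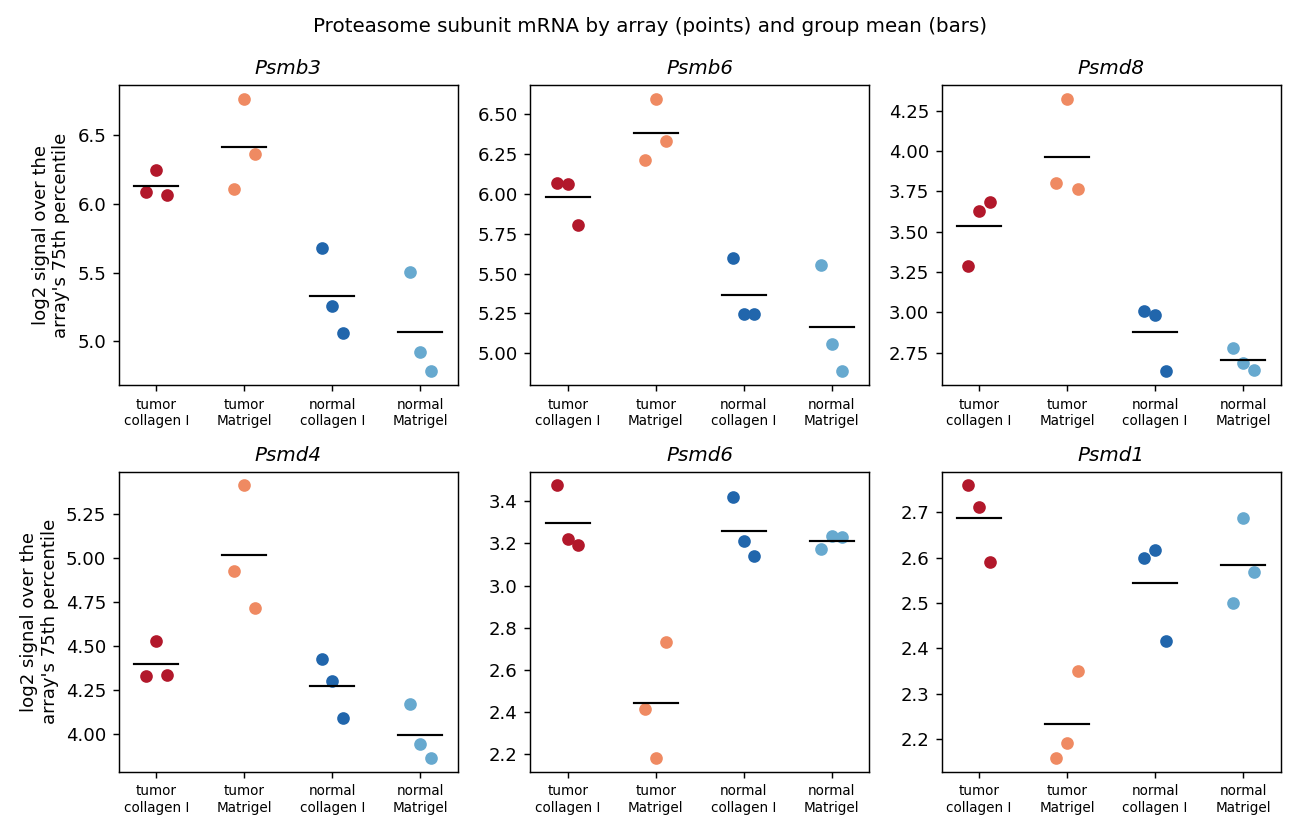
Level of 6 subunits (log2 signal over the array's 75th percentile) on the 12 arrays, with bars at group means; the vertical scale differs between panels. Psmb3, Psmb6, Psmd8 and Psmd4 were higher on all tumor Matrigel arrays than on all normal Matrigel arrays, and Psmd6 was lower on the tumor Matrigel arrays than on the arrays of all other groups.

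Psmd8, a cap subunit of the lid, read 3.80, 4.33 and 3.76 in tumor organoids in Matrigel, against 2.78, 2.68 and 2.64 in normal organoids in Matrigel. Tumor mouse B was the highest, and the groups lie far apart. The difference of 1.26 ± 0.20 (2.40-fold, limma's adjusted p = 0.000689) was 0.74 to 1.31 over the scalings. Psmd4, the cap's resident ubiquitin receptor, read 4.93, 5.41 and 4.71 in tumor Matrigel arrays, against 4.18, 3.95 and 3.87 in normal Matrigel arrays. It rose by 1.02 ± 0.20 (2.03-fold, adjusted p = 0.00204 with limma), and by 0.45 to 1.07 over the scalings. These values are of its brightest probe, and a dimmer Psmd4 probe went against it.

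Psmd6 went the other way. It read 2.41, 2.18 and 2.73 in tumor organoids in Matrigel, against 3.17, 3.24 and 3.23 in normal organoids in Matrigel, and the 3 normal arrays lay close together. The difference was -0.77 ± 0.18 (1.71-fold lower, limma's adjusted p = 0.00462), from -1.15 to -0.72 over the scalings.

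The remaining cap genes depended on the scaling. Psmd3, a scaffold subunit of the lid, read 7.38, 7.90 and 7.48 in tumor Matrigel arrays, against 6.84, 6.60 and 6.53 in normal Matrigel arrays, and passed at 0.93 ± 0.18 (limma's adjusted p = 0.002). Its value was -0.09 after quantile normalization and -0.19 in the authors' log2 values, so its direction flips. Psmd2, Psmd7 and Psmd11 were called higher with limma on the 75th percentile scale, at 0.55, 0.52 and 0.57, beside 0.00, 0.08 and -0.03 after quantile normalization, where none was called. Psmd14, the deubiquitinase of the lid, Psmd1, a scaffold of the base, and Psmd5, an assembly chaperone, were called lower after quantile normalization (-0.53, -0.68 and -0.53), beside -0.05, -0.35 and -0.14 on the 75th percentile scale, where none was called. The other assembly chaperones, Psmd9 and Psmd10, and Psmd12 and Psmd13 of the lid, passed under neither of these scalings.

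Of the 6 ATPases, Psmc4 and Psmc2 were called higher on the 75th percentile scale (0.70 ± 0.23 and 0.42 ± 0.16, limma's adjusted p = 0.0274 and 0.0492). After quantile normalization they gave 0.21 and -0.13 with no call, and Psmc3 and Psmc6 were called lower (-0.51 and -1.05). The 75th percentile scale gave those genes -0.05 and -0.51, neither called. Psmc1 and Psmc5 passed under neither.

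No alpha subunit was called with the 75th percentile scaling, where the 7 genes lay between -0.50 (Psma3) and 0.34 (Psma5). Quantile normalization called 5 of 7 lower, beside 25.4% of all genes: Psma1, Psma2, Psma3, Psma4 and Psma6, between -0.88 and -0.39. The authors' log2 values called 6 lower, beside 25.3% of all genes. Psma3 read 3.05, 2.35 and 2.51 in tumor Matrigel arrays, against 3.12, 3.09 and 3.17 in normal Matrigel arrays.

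The median difference of the 34 members in Matrigel was 0.34 on the 75th percentile scale, beside 0.08 for all genes, and -0.14 after quantile normalization, beside 0.01. The authors' log2 values gave 4 higher and 11 lower beside 22.7% and 25.3%, and a median of -0.14. Normexp gave 7 higher and 5 lower beside 38.6% and 11.5%, and a median of 0.05 where all genes had 0.45. Median centring gave 15 higher and 1 lower beside 27.4% and 24.8%. In all, 14 members changed sign over the scalings and 0 were called in opposite directions. The order of the members was much less affected: Spearman's rho between their 75th percentile and quantile differences was 0.925 over the 34 genes, which share the same arrays. The only slide with both tissues in Matrigel, slide 3 (tumor mouse B and normal mouse D), gave a member median of 0.62 with 26 of 34 genes above 0, beside a median of 0.19 for all genes on that slide. Without tumor Matrigel mouse B, or without normal Matrigel mouse D, 9 members were called in place of 15. The share of all genes called in those fits is not given here.

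**Figure D2:**
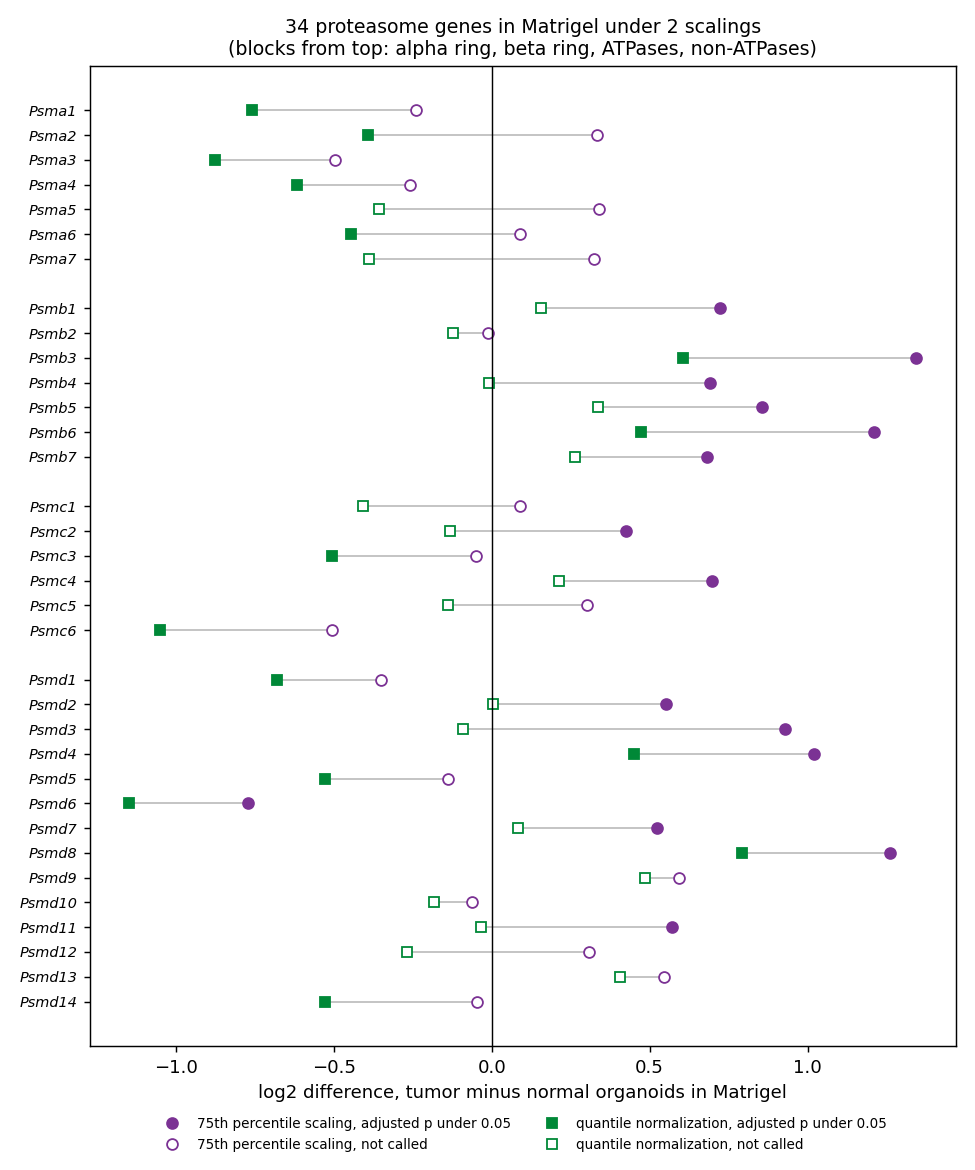
Tumor minus normal log2 difference in Matrigel for the 34 tested genes (x axis), with circles for the 75th percentile scaling and squares for quantile normalization; filled symbols passed limma at an adjusted p of 0.05. All 34 genes lie further left under quantile normalization, and Psmb3, Psmb6, Psmd4, Psmd8 and Psmd6 are the genes filled under both, each on 1 side of 0.

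Because the direction of the family followed the scaling, the beta and alpha rings were also set against each other within each array, a comparison chosen after its values were seen and given without a test. The median level of the 7 beta genes minus that of the 7 alpha genes was -0.001 to 0.009 in tumor organoids in collagen I, 0.28 to 0.70 in tumor organoids in Matrigel, 0.003 to 0.10 in normal organoids in collagen I and -0.36 to -0.26 in normal organoids in Matrigel. The tumor Matrigel arrays were thus the highest of the 12 and the normal Matrigel arrays the lowest, with both collagen I groups between them. Quantile normalization gave 0.28 to 0.65 in tumor Matrigel arrays, against -0.37 to -0.27 in normal Matrigel arrays. The scalings are no independent check of this order, since median centring gives the values of the 75th percentile scaling by construction, and quantile normalization keeps the order of probes within an array. Its size for 1 group has no meaning, because it depends on the probes, and only the change between groups can be read.

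**Figure D3:**
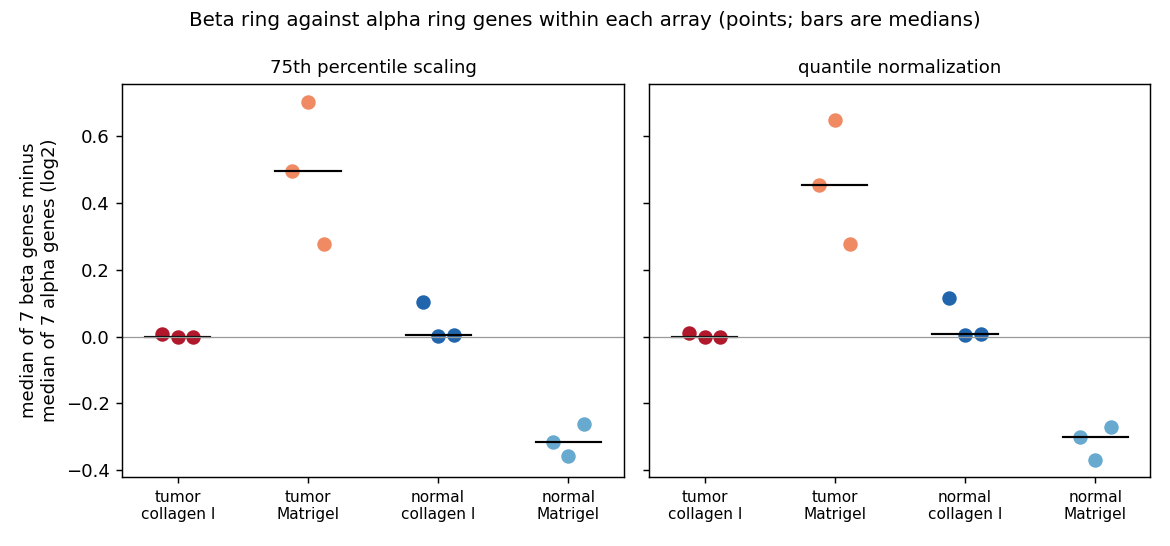
Median level of 7 beta ring genes minus that of 7 alpha ring genes on each of the 12 arrays (log2), under the 75th percentile scaling and quantile normalization, with bars at group medians. Tumor Matrigel arrays lie above all others and normal Matrigel arrays below, in both panels.

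The summed signals of fibroblast, endothelial and adipocyte markers were lower in tumor than in normal organoids in both gels. Such a sum mostly follows its brightest genes. Single markers of these lists also averaged lower in tumor organoids, except Adipoq in collagen I. Adipoq there had -7.33 in tumor and -7.92 in normal organoids, and was well above background on 0 arrays of either. Tek in Matrigel differed little (-5.52 in tumor and -5.42 in normal). The summed signal of fibroblast markers, in multiples of the 75th percentile, was 3.34 to 4.79 in tumor Matrigel arrays, against 16.6 to 109 in normal Matrigel arrays. That of endothelial markers was 0.132 to 0.213 in tumor, against 2.42 to 3.51 in normal, and that of adipocyte markers 0.766 to 1.15, against 15.9 to 51.1. Leukocyte markers overlapped at 4.16 to 7.10 in tumor and 2.11 to 27.6 in normal Matrigel arrays. In collagen I, fibroblast markers had 4.71 to 8.89 in tumor and 26.9 to 62.1 in normal arrays, and endothelial markers 0.0785 to 0.0856 and 1.18 to 2.43. Adipocyte markers there had 0.583 to 1.49 in tumor and 9.84 to 18.1 in normal arrays, and leukocyte markers 3.10 to 7.60 and 39.25 to 60.19. Luminal markers summed to 1038 to 1530 in tumor Matrigel arrays and 585.9 to 837.3 in normal ones, and basal markers to 123.9 to 416.3 and 96.6 to 488.6. The luminal markers did not all rise. Mean levels in tumor and then normal organoids in Matrigel were 8.81 and 7.98 for Krt8, 9.23 and 8.13 for Krt18, and 5.15 and 4.22 for Epcam. Krt19 had 6.64 and 6.81, and Cdh1 1.35 and 1.55. The 5 basal markers did not move as 1: mean levels in tumor and then normal organoids in Matrigel were 6.30 and 7.02 for Krt5, 7.25 and 6.17 for Krt14, 2.65 and 1.70 for Trp63, 4.27 and 4.31 for Acta2, and -4.52 and 2.53 for Myh11. The part of these cells in the subunit differences was not tested.

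In tumor organoids, 2 subunits were higher in collagen I than in Matrigel under all 5 scalings, Psmd6 and Psmd1. The share of all genes that passed under all 5 is again not given. With the 75th percentile scaling 2 of 34 members were higher and 1 lower, beside 15.8% and 12.1% of all genes. Psmd6 read 3.48, 3.22 and 3.19 in collagen I, against 2.41, 2.18 and 2.73 in Matrigel. The groups do not overlap, and each mouse was higher in collagen I. The difference was 0.85 ± 0.18 (1.81-fold, limma's adjusted p = 0.00736; 0.83 to 1.05 over the scalings). Psmd1 read 2.76, 2.71 and 2.59 in collagen I, against 2.16, 2.19 and 2.35 in Matrigel, a difference of 0.45 ± 0.15 (1.37-fold, adjusted p = 0.039 with limma). For Psmd1 the scalings gave 0.43 to 0.67, with adjusted p up to 0.0478. Psmd4 was lower in collagen I on the 75th percentile scale, reading 4.33, 4.53 and 4.34 there, against 4.93, 5.41 and 4.71 in Matrigel. Its difference of -0.62 ± 0.20 (1.54-fold lower, limma's adjusted p = 0.0413) was -0.23 after quantile normalization (adjusted p = 0.219).

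The member median between gels was -0.07, beside -0.04 for all genes. Quantile normalization called 8 members higher and 0 lower, beside 13.3% and 9.37% of all genes, with a median of 0.24. The 8 were 4 alpha genes and 4 non-ATPase cap genes, and 0 beta genes were called. The authors' log2 values also gave 8 higher and 0 lower, beside 13% and 8.08%, normexp gave 2 and 0, beside 2.68% and 4.16%, and median centring 2 and 2, beside 15.3% and 12.9%. On the 75th percentile scale the medians were 0.18 for the alpha ring, -0.30 for the beta ring, -0.03 for the ATPases and -0.04 for the other cap genes. This comparison uses the same tumor Matrigel arrays as the Matrigel comparison of tumor with normal organoids, so the values of a gene in the 2 are not independent. With the slide as a fixed block, or with the tumor arrays fitted alone, 0 members were called, and with the mouse as a fixed block 1. The share of all genes called in these fits is not given here, so these counts are not read as a result about the members. With each of the 12 arrays left out in turn, Psmd6 kept its call in 12 of 12 fits, Psmd1 in 2 and Psmd4 in 3, and 1 member was left without tumor collagen I mouse A or C, tumor Matrigel mouse B, any normal collagen I array, or normal Matrigel mouse B or D. Within slide 8, the only one with both gels (tumor collagen I mouse A and tumor Matrigel mouse C), the member median was 0.10, beside 0.03 for all genes. The median member difference between gels was 0.06 in tumor mouse A, -0.14 in mouse B and -0.04 in mouse C.

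**Figure D4:**
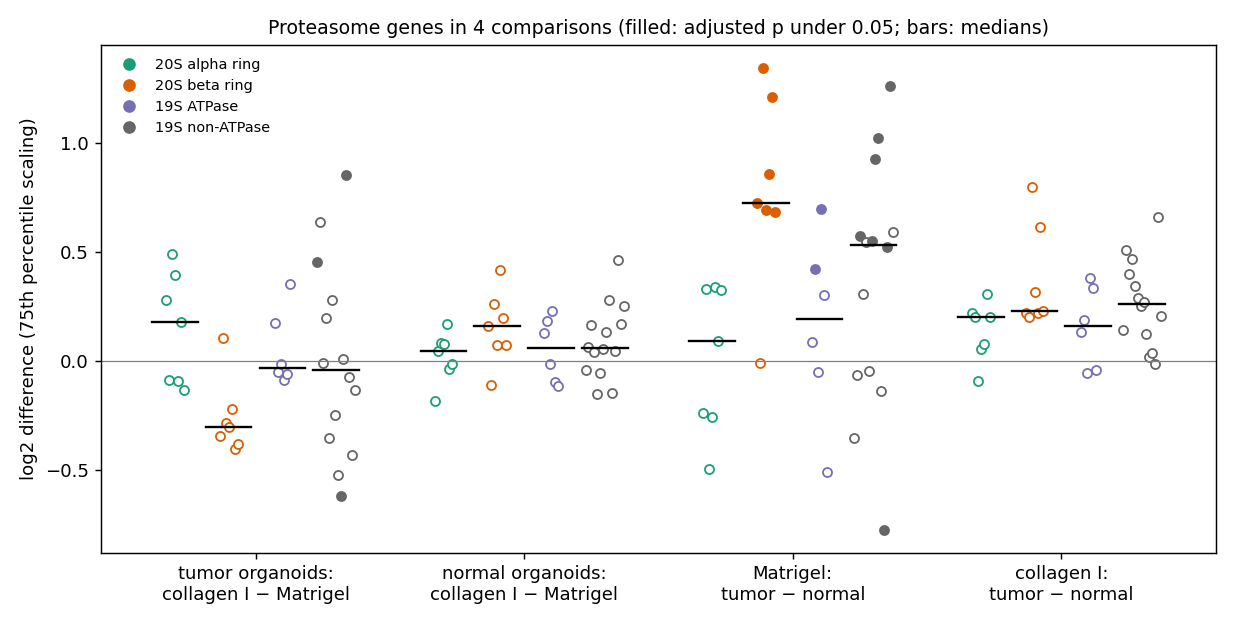
Log2 difference of each tested subunit in 4 comparisons (75th percentile scaling), coloured by subcomplex, with filled points for limma's adjusted p under 0.05 and bars at medians. In tumor against normal organoids in Matrigel 6 of 7 beta genes are filled, beside 25.7% of all genes called higher. Of these beta genes 2 stay called after quantile normalization, which also puts all 7 alpha genes below 0.

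In normal organoids the 2 gels gave 0 calls among the 34 genes under any of the 5 scalings. Over all genes limma called 0.0383% higher and 0.00547% lower in collagen I. At an unadjusted p under 0.05 there was 1 member, and 1658 of 18274 genes. The median member difference was 0.07, and within the 2 slides that held both gels it was 0.35 (slide 3) and -0.04 (slide 6), beside 0.06 and 0.01 for all genes. Psmb3 read 5.68, 5.26 and 5.06 in collagen I, against 5.51, 4.92 and 4.78 in Matrigel, and Psmd6 3.42, 3.21 and 3.14, against 3.17, 3.24 and 3.23. The values overlap for both genes, and the differences were 0.26 ± 0.25 and 0.04 ± 0.18 (SE).

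In collagen I, tumor against normal organoids likewise gave 0 calls among the members under any scaling, beside 3.64% higher and 5% lower over all genes. At an unadjusted p under 0.05 there were 5 members and 4240 genes. The median was 0.22 on the 75th percentile scale, with 30 of 34 genes above 0, and 0.02 after quantile normalization. Within slide 5, the only one with both tissues in collagen I, it was 0.19, beside 0.03 for all genes. The nearest to the threshold were the genes that led in Matrigel. Psmd8 read 3.29, 3.63 and 3.69 in tumor organoids in collagen I, against 3.01, 2.99 and 2.63 in normal organoids in collagen I. These do not overlap, and the difference was 0.66 ± 0.20 (limma's adjusted p = 0.0702). Psmb3 read 6.08, 6.25 and 6.07 in tumor, against 5.68, 5.26 and 5.06 in normal, also without overlap (0.80 ± 0.25, adjusted p = 0.0755 with limma). Psmb6 had 0.61 ± 0.21 (adjusted p = 0.102), whereas Psmd4 and Psmd6 had 0.12 ± 0.20 and 0.04 ± 0.18.

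Whether the gel effect differed between tissues was tested by the interaction, tumor's collagen I minus Matrigel difference less that of normal organoids. It called 0 members under any scaling, beside 1.34% of all genes higher and 1.29% lower. At an unadjusted p under 0.05 there were 5 members and 4772 genes. Psmd6 was nearest on the positive side (0.81 ± 0.25, limma's adjusted p = 0.0879), and Psmd4 on the negative side (-0.90 ± 0.28, adjusted p = 0.092 with limma). So the Psmd6 difference between gels, which passed in tumor and not in normal organoids, was not shown to differ between them.

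Several genes carry more than 1 probe, and in Matrigel, tumor against normal, probes of 1 gene lay furthest apart in Psmd7, Psmd4, Psmc6 and Psmc2. The dimmest probe of Psmd4 had -0.61 in tumor against normal organoids in Matrigel and did not pass (limma's adjusted p = 0.129), where the brightest rose by 1.02. In tumor organoids that dim probe was higher in collagen I by 1.27 ± 0.32 (adjusted p = 0.0145 with limma), against the brightest probe's -0.62. For Psmd7 in Matrigel the dimmest of 3 probes had -1.16 ± 0.36 (limma's adjusted p = 0.0191), the middle one 0.14 and the brightest 0.52. For Psmc6 both probes were below 0, at -2.03 ± 0.34 (limma's adjusted p = 0.00091) for the dimmer and -0.51 for the brighter. Psmc2 had -0.69 in its dimmer probe and 0.42 in its brighter, and neither passed in the fit over probes. Psmd12 had 0.31 in its brightest probe and -0.49 and -0.29 in the others, none of which passed, and Psmd2 passed in its brighter probe (0.55) but not in its dimmer (0.24). The dimmest probes of Psmd7, Psmd4, Psmc6 and Psmc2 were the kept probes of the family that matched no RefSeq transcript, whereas all probes of Psmd12 and Psmd2 matched one. The values of Psmd4 and Psmd7 above hold for the brightest probe alone. In mm7, per the file headers, the unmatched probes lie 723 (Psmd4), 6458 (Psmd7), 2643 (Psmc6) and 5755 bases (Psmc2) from the brightest probe. Psmb3 and Psmc4 had 2 probes each that passed in the same direction in Matrigel.

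**Figure D5:**
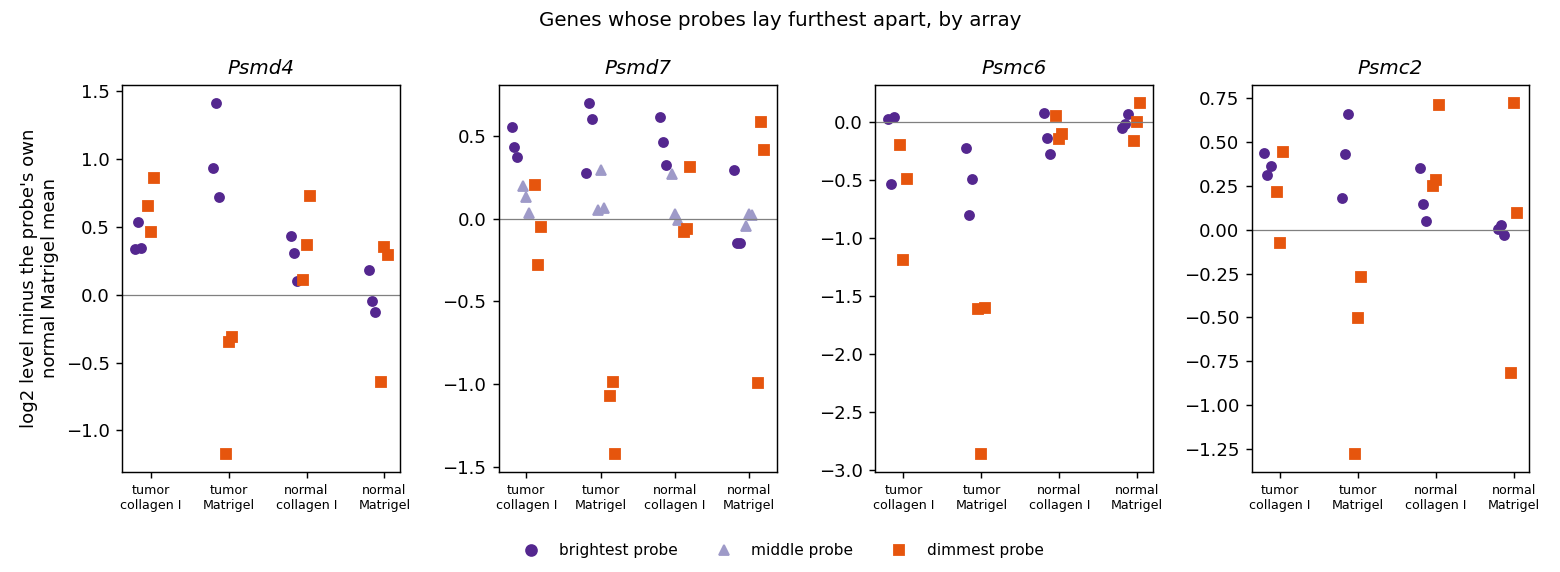
Log2 level of each probe minus its own mean over normal Matrigel arrays, on the 12 arrays, for the 4 genes whose probes lay furthest apart in Matrigel, tumor against normal; circles are the brightest probe, triangles the middle and squares the dimmest. The dimmest probes average lower on tumor than on normal Matrigel arrays, most of all for Psmc6. For Psmd4, Psmd7 and Psmc2 the dimmest probe of normal Matrigel mouse A lies among the tumor values. The brightest probes of Psmd4, Psmd7 and Psmc2 average higher on tumor Matrigel arrays, with overlap for Psmd7.

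Subunits moved together among the arrays of a group to a degree that depended on the scaling. Each value was taken as its deviation from its group mean, so differences between groups do not enter. Over 12 arrays and 561 pairs of members, the mean Pearson r was 0.372 on the 75th percentile scale, with 81.6% of pairs above 0 (mean over all genes 0.019). After quantile normalization it was 0.119, with 60.2% of pairs above 0 (mean over all genes 0.004). The share of pairs above 0 over all genes is not given here. All 34 members were well above background on all 12 arrays, as were 14888 of the 18274 genes tested, and the part of brightness in r was not tested. The pairs share the same 12 arrays, so this is a description. Psmb4, Psmb5 and Psma2 had the highest mean r with the other members (0.583, 0.573 and 0.572), and Psmc6, Psmd6 and Psmc1 the lowest (-0.106, 0.037 and 0.070).

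The genes around the proteasome were followed in 5 lists. Their median differences in Matrigel, tumor against normal, were 0.73 for Nrf1 and its partners, 0.83 for ubiquitin and p97, 0.52 for assembly factors and other regulators, 0.18 for receptors, deubiquitinases and shuttles, and 0.99 for the immunoproteasome and its activator, beside 0.08 for all genes on the 75th percentile scale. After quantile normalization they were 0.69, -0.14, 0.15, 0.06 and 0.45 in the same order, beside 0.01 for all genes, so that the ubiquitin and p97 list changed sign. In the list of Nrf1 and its partners, 4 of 7 rose and 1 fell in tumor against normal organoids in Matrigel, beside 25.7% and 25.9% of all genes, and all 5 did so under each of the 5 scalings. Nfe2l1, which encodes Nrf1, read 5.91, 6.03 and 5.54 in tumor Matrigel arrays, against 4.35, 4.38 and 4.55 in normal Matrigel arrays, a difference of 1.40 ± 0.17 (limma's adjusted p = 0.00019; 0.74 to 1.45 over the scalings). Maff, a small Maf partner, read 3.10, 3.50 and 3.30, against 0.89, -0.09 and -0.51, a difference of 3.20 ± 0.50 (adjusted p = 0.000637 with limma). Mafg, another small Maf, rose by 1.03. Ngly1, the glycosidase that removes sugar chains from Nrf1, read -1.76, -2.22 and -1.62 in tumor, against -0.56, -0.21 and 0.13 in normal, a difference of -1.65 ± 0.23 (limma's adjusted p = 0.000363). In tumor organoids, Nfe2l1 (-0.62), Nfe2l2 (-0.46), its relative, and Maff (-1.75) were lower and Ngly1 (0.77) higher in collagen I than in Matrigel on the 75th percentile scale, beside 12.1% and 15.8% of all genes, and 0 of the 7 were called after quantile normalization.

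Of the ubiquitin and p97 genes, 6 of 10 rose in tumor against normal organoids in Matrigel and 0 fell on the 75th percentile scale, beside 25.7% and 25.9% of all genes, and 1 was higher and 1 lower after quantile normalization, beside 23.2% and 25.4%. They include the ubiquitin gene Ubb (0.98) and Nploc4, a p97 cofactor (1.12), and of the list Nploc4 alone held under all 5 scalings. Ubiquitin genes share nearly the same coding sequence, so their probes may read each other's mRNA. In tumor organoids, 4 of the 10 were lower in collagen I than in Matrigel, beside 12.1% of all genes, among them the ubiquitin-activating enzyme Uba1 (-0.77) and Rps27a (-0.64), and 0 after quantile normalization. Of the assembly factors and other regulators, 3 of 8 rose in Matrigel, beside 25.7% of all genes: Psmf1, a proteasome inhibitor (1.08), Psmg3, a chaperone of core assembly (0.94), and Akirin2, which carries proteasomes into the nucleus (0.92), the first 2 under all scalings. After quantile normalization 2 of the 8 were higher and 2 lower, beside 23.2% and 25.4% of all genes. Psme4, an alternative activator, was higher in collagen I in tumor organoids (0.75, limma's adjusted p = 0.0227) under all 5. Of 11 receptors, deubiquitinases and shuttles, 4 rose and 2 fell in Matrigel, beside 25.7% and 25.9% of all genes, and 2 were higher and 3 lower after quantile normalization. The shuttle Ubqln4 (0.52) and the proteasome-binding Zfand5 (-0.60) were among those that held under all 5. Rad23b, another shuttle, rose by 0.65 on the 75th percentile scale. On that scale Ubqln4 was lower in collagen I than in Matrigel in tumor organoids (-0.55).

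The inducible counterparts moved with the scaling. Psmb8 read 5.49, 5.51 and 4.69 in tumor Matrigel arrays, against 4.71, 3.78 and 3.51 in normal Matrigel arrays, which overlap, since normal mouse A reached 4.71. Of the 4 immunoproteasome and activator genes measured, Psmb8 (1.23), Psmb9 (0.98) and Psme1 (1.00) rose in Matrigel on the 75th percentile scale, beside 25.7% of all genes (limma's adjusted p = 0.0172, 0.0437 and 0.00396), and 0 of 4 were called after quantile normalization. In normal organoids between gels, in collagen I between tissues and in the interaction, 0 genes of the 5 lists were called on the 75th percentile scale. After quantile normalization 1 was, Psmf1, higher in tumor than in normal organoids in collagen I.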

How the data were processed

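Total RNA was amplified, labelled with Cy3 and hybridised to 1-colour Agilent 4x44K arrays, per the labels' protocols. The deposited intensity files hold processed signals that Agilent Feature Extraction (version 9.5 per the file headers, 9.1 per the submitters' processing notes) had background-subtracted and detrended within the array. The authors' deposited log2 values were normalized between arrays by a method not given in the sources used here. Their column medians lay near 5.9, and they followed the processed signals of the same arrays. Their scale is log2 and their centring is unstated. Their 1 column for normal Matrigel mouse B averages its batch 1 and batch 2 arrays, per the labels, so that scaling is not of batch 2 alone.

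Of 14 arrays, the 12 of batch 2 entered the tests, and batch 1 repeats of normal Matrigel mice A and B an alternative. The main values were log2 processed signals minus each array's 75th percentile. Control and outlier-flagged spots were left out, and spots of a probe averaged. A probe was kept where all arrays of some group had it well above background (26606 probes, 18274 genes), and a gene was read from its brightest probe. limma 3.58.1 (R 4.3.3) fitted all 12 arrays together, with contrasts of group means, 2-sided tests, Benjamini-Hochberg adjustment over all genes and a threshold of 0.05. The number of arrays (3 a group) limits the precision. Organoids of a group came from different mice, per the labels. Gene names of members are those of the files, and 44 of the 50 member probes matched a RefSeq transcript of the same symbol. Other probes took the RefSeq symbol where their transcript matched, and the files' name otherwise. Of all probes, 22951 (55.7%) had such a match. The 2 probes that RefSeq but not the files names as Psma to Psmd genes were kept apart from the members. Promoters are RefSeq's (GRCm38.p6). Fits were tested on simulated data.

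Members, gene lists and tests were chosen with earlier results of these data known. All members are accounted for; of the other lists, up to 4 genes per comparison that passed are named by adjusted p. Some genes of these lists are not reported here by name. Mouse letters mark the same animal in both gels within a tissue. The deviations of such a pair from its group means correlated over genes at -0.0583, 0.323 and 0.419 in tumor mice A, B and C and 0.240 and -0.243 in normal mice A and B. Alternatives covered scaling, background, filter, probes, slide, mouse, batch, array weights and each array left out.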

Additional observations from a re-analysis of the deposited data

How the results depend on the processing

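Matrigel tumor against normal calls numbered 10 to 19 of 34 over the settings that kept all arrays (15 in the main setting). With 1 array left out they ran from 9 to 17. Psmb3, Psmb6, Psmd8 and Psmd6 kept their calls in all of these fits. The total hides the direction. The main setting had 14 higher and 1 lower, whereas quantile normalization and the authors' values each had 4 higher and 11 lower. Counts of calls in this section stand without the share of all genes called, which is given above for the scalings alone. A change in such a count is thus not read as a result about the members. Scaling set the medians: quantile normalization, normexp and the authors' log2 values gave -0.135, 0.048 and -0.14 in that comparison, 0.245, 0.205 and 0.304 for collagen I against Matrigel in tumor organoids, and 0.241, 0.117 and 0.199 for the interaction, and quantile normalization and the authors' values gave 0.024 each for tumor against normal in collagen I. The cause was not tested. Single genes in Matrigel, tumor against normal, that turned negative were Psmb4 (-0.009), Psmc2 (-0.132), Psmd11 (-0.033) and Psmd3 (-0.092) under quantile normalization, and Psmb4 (-0.027), Psmc2 (-0.117), Psmd11 (-0.095), Psmd3 (-0.192) and Psmd7 (-0.069) in the authors' values. Averaging a gene's probes turned Psmc2 (-0.13) and Psmd7 (-0.167) there and Psmd4 between gels in tumor organoids (0.326), since the probes disagree. In Matrigel, tumor against normal, it left Psmd4 at 0.206 without a call (limma's adjusted p = 0.38). It gave medians of 0.196 in Matrigel and -0.008 for the interaction, where every probe on its own gave 0.016.

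The 3 calls between gels in tumor organoids became 8 under quantile normalization, 8 in the authors' values, 6 over single probes, 1 with no filter on dim probes, 1 with array weights, 0 with the slide as a fixed block and 0 with the 2 groups fitted alone. Array weights gave 1 call between gels in normal organoids, 2 between tissues in collagen I and 2 in the interaction. The slide as a random block gave 1 call between tissues in collagen I, and averaging batch 1 and batch 2 arrays gave 1 in the interaction. Within-slide medians were 0.101 (slide 8, gels, tumor), 0.346 (slide 3, gels, normal) and 0.617 (slide 3, tissues, Matrigel). With the mouse as a replicate block, the tumor gel comparison had 1 call in the fixed form and 4 in the random form, and the interaction 1 in the random form. The random form left the count between tissues in Matrigel at 15. That comparison is between different mice, so the block does not pair it, and the fixed form does not hold it. Between gels in normal organoids the count stayed at 0 in both forms.

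With each array left out in turn, calls ran from 1 to 3 between gels in tumor organoids, 0 to 0 in normal organoids, 9 to 17 between tissues in Matrigel, 0 to 1 in collagen I and 0 to 0 in the interaction. Member medians ran from -0.106 to 0.026, -0.033 to 0.173, 0.262 to 0.461, 0.149 to 0.33 and -0.235 to -0.022 in the same order. Over all settings, the called genes' values kept direction and call in 361 cases, lost the call in 98 and reversed in 12. With 3 arrays a group, small differences could not be resolved.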
